A study of Mus musculus with 4 samples.

Results

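Integrins are surface receptors made of an alpha and a beta chain that hold cells to matrix and to other cells. Outside the leukocyte β2 group, β1 chains pair with many alpha chains to bind collagen, laminin and fibronectin, β3 pairs with αV to bind RGD proteins such as vitronectin and osteopontin, and β7 pairs with α4 to bind MAdCAM-1 or with αE to bind E-cadherin. The α4 chain also pairs with β1, as VLA-4, to bind VCAM-1, and lymphocytes in mucosal tissue are known for α4β7, α4β1 and αEβ7. Described here are the 10 genes Itga1, Itga2, Itga4, Itga5, Itga6, Itgae, Itgav, Itgb1, Itgb3 and Itgb7, taken by gene symbol from a fixed list, out of 22558 genes in the count table. All 10 were found, and all 10 passed the filter on low counts that left 11711 genes to test.

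The RNA was from group 2 innate lymphoid cells (ILC2s), lymphocytes without antigen receptors that make type 2 cytokines, sorted from lungs of mice 6 weeks old. The 2 WT libraries came from C57BL/6 mice and the 2 other libraries from mice labelled ICAM-1 KO, for which the paper names the germline line B6.129S4-Icam1tm1Jcgr/J, so that any cell of the animal carries the allele. All mice, WT included, had received rmIL-33 into the nose in 3 challenges of 0.5 µg, and lungs were taken on day 4, so no library came from resting lung. Each library was a pool of 4 mice, and cells were sorted as CD45+ Lineage- ST2+ CD127+.

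Icam1 RNA was not lower where the knockout was labelled, and the groups are therefore named by their labels, the second one as the KO-labelled libraries. Its counts were 2579 and 2630 in WT against 2812 and 3453 in the KO-labelled libraries, with a log2 fold change of 0.33 (standard error 0.108, edgeR adjusted p = 0.0745). The counts are summed over the whole gene and do not show which exons were read. For the protein, the paper reports by flow cytometry that ICAM-1 was lacking on lung ILC2s of ICAM-1 KO mice after such a challenge. Library totals were 24796148 to 28782471 counts. The 10 ILC2 markers were all tested, with a summed normalized count of 5830 and 6107 in WT and 5168 and 5278 in the KO-labelled libraries, and Il1rl1, which encodes the ST2 of the gate, was at 626 and 728 against 774 and 760. Markers of cell types outside the gate were also read in all libraries and, for several types, were more abundant in those labelled ICAM-1 KO. The paper reports a high purity of the cells sorted for sequencing. Whether ILC2s or other cells carried the RNA of these markers was not tested. All 11 endothelial markers, 8 of 12 tested macrophage and dendritic markers, 5 of 10 T cell markers, 5 of 8 tested epithelial markers and 4 of 6 B cell markers were called higher. Of all genes tested, 8.8% were called higher by edgeR at an adjusted p under 0.05. In bulk RNA, a changed number of cells of a type and a changed level per cell cannot be told apart.

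The chains that changed were all higher in the KO-labelled libraries, and the most abundant chain, Itgb7, was among those that did not pass the test. Itga1, which encodes the collagen-binding α1 chain, had a fold change of 3.94, and Itgae, the αE chain known as CD103, one of 1.85. Itga4 (1.38), Itgb1 (1.31) and Itgav (1.25) rose less. Counted over the 10 genes, 5 were called higher by edgeR at an adjusted p under 0.05, beside 8.8% of all genes tested, and 0 were called lower, beside 4.97%. At an unadjusted p under 0.05, 6 were higher and 0 lower, and DESeq2 called 5 higher and 0 lower and limma 4 and 0. The count of 5 fell to 1 without WT replicate 1, to 3 without any 1 of the other libraries, and to 1 with no filter on low counts. Itga1 was the only one of the 10 past 2-fold and the adjusted p threshold together, which 4.94% of all genes tested passed upward. In 7 of the 10 genes both KO-labelled libraries lay above both WT libraries, against 28.3% of all genes tested, and in none did both lie below, against 31.3%. The median log2 fold change was 0.40 over the 10 genes and 0.01 over all genes tested.

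**Figure D1:**
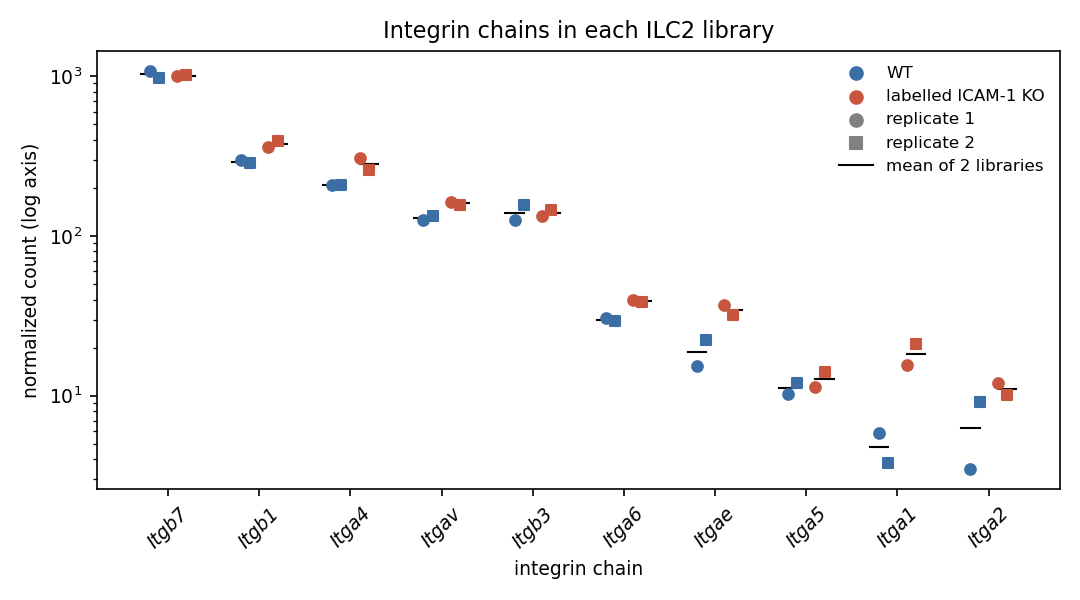
Normalized count (log axis) of the 10 integrin chains in each of the 4 libraries, blue for WT and red for KO-labelled libraries, circles for replicate 1 and squares for replicate 2, with black bars at the mean of 2 libraries. The red points lie above the blue ones for 7 genes, while they overlap for Itgb7, Itgb3 and Itga5.

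Set against each other as CPM per kilobase of merged exons, the chains spanned a wide range of levels. Itgb7 was highest at 411 ± 33.2 (SD, n = 2) in WT and 419 ± 0.372 in the KO-labelled libraries, followed by Itgb1 at 79.1 ± 3.26 and 106 ± 5.93. Itgb3 (26.2 ± 3.76 and 27.2 ± 1.36), Itga4 (16.4 ± 0.280 and 23.3 ± 3.18) and Itgav (13.4 ± 0.409 and 17.2 ± 0.652) came next. Their order was the same in all 4 libraries, and within each group the ranges of these neighbours did not overlap. Below them stood Itgae (4.54 ± 1.18 and 8.65 ± 0.984), Itga6 (3.66 ± 0.140 and 4.97 ± 0.152) and Itga5 (2.48 ± 0.247 and 2.96 ± 0.429). Itgae and Itga6 overlapped in WT, where they did not differ beyond their spread, and not in the KO-labelled libraries. Itga2 (0.969 ± 0.614 and 1.77 ± 0.234) and Itga1 (0.283 ± 0.0879 and 1.13 ± 0.221) were lowest, with Itga2 above Itga1 in both groups without overlap. With the length of the longest transcript in place of merged exons, Itga4 moved above Itgb3 and Itga6 above Itgae, and the other ranks stayed.

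Bases upstream of the start are given for 4 genes: for the β7 and β1 chains, whose ratio did not overlap between the groups, for α4, which pairs with both, and for α1, which had the largest fold change. Promoters of 7 of the 10 genes were matched in RefSeq (GRCm38.p6, the same assembly as mm10), and Itga6, Itgae and Itgb3 were not. Each sequence is the 250 bases before the RefSeq start, 5′ to 3′ on the strand of the gene. Capitals mark matches, on either strand, to GGGCGG (GC box), AGGAAG (ETS core) or TGTGGT (RUNX core). Also searched were the motif of GATA factors, spelled AGATAA, and that of the TATA-binding protein, spelled TATAAA, with no match in any of the 7 windows, and no matches overlapped each other.
Itgb7, chr15:102231936-102232185, minus strand: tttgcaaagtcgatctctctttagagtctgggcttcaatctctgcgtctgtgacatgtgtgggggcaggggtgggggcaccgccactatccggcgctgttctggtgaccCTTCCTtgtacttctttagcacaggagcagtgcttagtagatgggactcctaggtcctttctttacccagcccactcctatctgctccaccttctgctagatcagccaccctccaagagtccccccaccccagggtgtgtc
Itgb1, chr8:128685404-128685653, plus strand: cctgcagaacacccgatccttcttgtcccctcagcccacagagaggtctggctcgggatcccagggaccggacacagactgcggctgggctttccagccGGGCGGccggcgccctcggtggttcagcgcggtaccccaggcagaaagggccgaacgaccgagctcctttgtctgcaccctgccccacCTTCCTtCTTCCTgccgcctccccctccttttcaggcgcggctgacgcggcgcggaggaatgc
Itga4, chr2:79255176-79255425, plus strand: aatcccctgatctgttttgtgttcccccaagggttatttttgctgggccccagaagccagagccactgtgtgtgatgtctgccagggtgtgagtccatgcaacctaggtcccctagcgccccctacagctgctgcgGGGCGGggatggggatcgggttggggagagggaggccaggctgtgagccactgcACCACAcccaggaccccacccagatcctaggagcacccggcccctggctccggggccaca
Itga1, chr13:115101965-115102214, minus strand: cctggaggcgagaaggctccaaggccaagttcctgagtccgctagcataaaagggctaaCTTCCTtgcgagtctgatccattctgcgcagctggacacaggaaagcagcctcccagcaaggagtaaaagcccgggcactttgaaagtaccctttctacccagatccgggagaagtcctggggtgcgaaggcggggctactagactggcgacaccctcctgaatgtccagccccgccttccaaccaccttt

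In windows of 300 bases that also take in the first 50 transcribed bases, the ETS core was found in Itgb7 at -141 and 2, in Itgb1 at -63 and -56, in Itga1 at -191 and in Itgav at -8, counted from the start. Of all 32851 promoters of that length, 35.4% held this core on either strand, 35.7% the GC box and 16.8% the RUNX core. The GC box was found in Itgb1 at -151, in Itga4 at -114, in Itgav at 8, in Itga2 at 3 and in Itga5 at -149 and -6, and the RUNX core in Itga4 at -60 alone. Itgb7, which did not pass the test, and 3 genes called higher (Itga1, Itgav and Itgb1) thus held the ETS core, while Itga4 did not. The GC content was 56.3% for Itgb7, 67.3% for Itgb1, 64.3% for Itga4 and 56.7% for Itga1, and its median over all promoters was 52.7%.

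Itgb7 (chr15:102215995-102231944, minus strand, mm10) encodes the β chain shared by α4β7 and αEβ7. Its normalized count was 1082 and 978 in the WT libraries and 999 and 1016 in the KO-labelled libraries. The groups overlapped, and the WT libraries stood further apart than the means. The log2 fold change was -0.00 (standard error 0.0860, edgeR adjusted p = 0.979).

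Itgb1 (chr8:128685654-128733200, plus strand) encodes the β chain of the collagen, laminin and fibronectin receptors and of VLA-4. It was at 299 and 286 in WT and at 358 and 394 in the KO-labelled libraries. Both libraries of the latter group lay above both WT libraries. The means were 292 ± 9.34 and 376 ± 25.3 (SD, n = 2), a log2 fold change of 0.39 (standard error 0.0896, edgeR adjusted p = 0.0236). The change stayed positive with any library left out, but the call was lost without WT replicate 1 (adjusted p = 0.0768), WT replicate 2 (0.115) or KO-labelled replicate 2 (0.107).

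The balance of these 2 beta chains moved with the groups. Per kilobase, Itgb7 RNA was 5.34 and 5.05 times that of Itgb1 in the WT libraries and 4.11 and 3.80 times in those labelled ICAM-1 KO. The means, 5.19 ± 0.205 and 3.96 ± 0.218 (SD, n = 2), differed by more than the spread within either group. The exact permutation test (two-sided, on the log2 ratio) gave p = 0.333, which is the smallest value that 2 against 2 libraries allow. The ratio concerns RNA and does not show how the chains were paired on the surface.

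Itgb3 (chr11:104608000-104670476, plus strand) encodes the partner of αV and, in platelets, of αIIb. Its normalized count was 125 and 155 in WT and 133 and 145 in the KO-labelled libraries. Both of the latter lay between the WT libraries. The log2 fold change was 0.02 (standard error 0.121, edgeR adjusted p = 0.936), and its sign turned under 5 of 12 alternatives. Itga2b, the platelet partner, was at 8.50 ± 1.14 and 8.52 ± 2.23 (SD, n = 2), with a log2 fold change of 0.02 (edgeR adjusted p = 0.968). Platelet markers were scarce but more abundant in the KO-labelled libraries, with a summed normalized count of 4.85 and 6.84 in WT and 13.3 and 19.4 in those libraries. Both markers that could be tested, Pf4 and Ppbp, were called higher by edgeR (adjusted p = 0.0408 and 0.0495) and by DESeq2. By limma 0 were called, and Gp1bb and Gp9 were at 0 in at least 1 library.

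Itga4 (chr2:79255426-79333123, plus strand) encodes the α4 chain, the partner that β1 and β7 share. It was at 209 and 207 in WT and at 307 and 257 in the KO-labelled libraries. The WT libraries were nearly equal, and both others lay above them. The means were 208 ± 1.61 and 282 ± 35.3 (SD, n = 2), a log2 fold change of 0.47 (standard error 0.0995, edgeR adjusted p = 0.0181). Without WT replicate 1 the adjusted p was 0.0782, without WT replicate 2 0.0877 and without KO-labelled replicate 1 0.0814, each with a positive change. A gene on the other strand, Cerkl, shares 1124 exon bases with Itga4, and it had 44.9 to 102 counts per library beside 6335 to 8846 for Itga4.

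Relative to its partner β7, Itga4 RNA per kilobase was 0.0383 and 0.0419 of Itgb7 in WT and 0.0609 and 0.0501 in the KO-labelled libraries. The 2 groups did not overlap, and the exact permutation p was again 0.333, the smallest possible. Relative to β1 the ratio was 0.204 and 0.212 in WT and 0.250 and 0.191 in the KO-labelled libraries. Here the groups overlapped.

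Itgae (chr11:73090583-73147446, plus strand) encodes αE, which with β7 binds E-cadherin on epithelium and is known from tissue-resident and regulatory T cells and from a dendritic cell subset. Its normalized count was 15.3 and 22.5 in WT and 36.9 and 31.9 in the KO-labelled libraries. Both of the latter lay above both WT libraries, which differed between themselves. The means were 18.9 ± 5.07 and 34.4 ± 3.52 (SD, n = 2), a log2 fold change of 0.89 (standard error 0.205, edgeR adjusted p = 0.0244). Without WT replicate 1, the library with the lowest value, the log2 fold change was 0.64 and the adjusted p 0.0976, and the call held with any of the other 3 libraries left out.

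T cell markers moved with Itgae in part. Their summed normalized count was 603 and 803 in WT and 1070 and 1256 in the KO-labelled libraries, with 5 of 10 called higher and none of the 10 at 0 in any library. Foxp3, the factor that defines regulatory T cells, was at 42.4 and 53.9 in WT and 157 and 181 in the KO-labelled libraries. Trac was at 58.8 and 78.7 in WT and 183 and 225 in the KO-labelled libraries. Ikzf2 was at 27.2 and 25.8 against 70.0 and 80.2. Foxp3, Trac, Ikzf2, Cd3d and Cd4 were the markers called higher by edgeR. Ctla4, the most abundant marker of the list, was at 280 and 390 in WT and 389 and 435 in the KO-labelled libraries. Its groups overlapped and it was not called (log2 fold change 0.33, edgeR adjusted p = 0.164). Cd3g, named after its values were seen, went the other way, at 114 and 127 in WT and 81.1 and 107 in the KO-labelled libraries (log2 fold change -0.33, edgeR adjusted p = 0.158), and Cd3e and Cd8a were not called. The part of these cells in the Itgae result was not tested. Cdh1, which encodes the ligand E-cadherin and was chosen after its values were seen, was at 7.74 ± 0.0689 and 11.2 ± 2.24 (SD, n = 2; log2 fold change 0.56, edgeR adjusted p = 0.201).

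Itgav (chr2:83724397-83806916, plus strand) encodes αV, whose partners include β1, β3, β5 and β8. It was at 127 and 134 in WT and at 163 and 157 in the KO-labelled libraries. The groups did not overlap, and the libraries of each were close together. The means were 130.2 ± 5.19 and 160.3 ± 4.23 (SD, n = 2), a log2 fold change of 0.33 (standard error 0.0908, edgeR adjusted p = 0.0452). This call was the nearest to the threshold among the 5 and was lost with any library left out (adjusted p 0.0991 to 0.162). Gm13684, a gene on the other strand that shares 634 exon bases with Itgav, had 324 to 512 counts per library beside 3831 to 4936 for Itgav.

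Of the partners of αV named above, Itgb1, Itgb5 and Itgb8 rose and Itgb3 did not pass the test. Itgb5 was at 5.17 and 8.01 in WT and at 12.1 and 15.0 in the KO-labelled libraries, a log2 fold change of 1.07 (standard error 0.293, edgeR adjusted p = 0.0427). Itgb8, whose dimer with αV is known for releasing active TGF-β, was at 1.68 and 0.887 in WT and 6.18 and 3.63 in the KO-labelled libraries (log2 fold change 1.98, standard error 0.513, edgeR adjusted p = 0.0363). Both were low genes. Of the 11 integrin chains listed outside the 10 genes and the β2 group, 10 were in the count table and 4 passed the filter. Called higher by edgeR were 2 and lower 0, beside 8.8% and 4.97% of all genes tested. At an unadjusted p under 0.05 and with DESeq2, 2 were higher and 0 lower. With any 1 library left out, 0 or 1 of them was called: 0 without WT replicate 1 or WT replicate 2, and 1 without either of the others. Itga3 (log2 fold change 0.18, edgeR adjusted p = 0.622) and Itga2b did not pass the test.

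The collagen receptors differed in how they stood to the WT libraries. Itga1 (chr13:114953096-115101964, minus strand) encodes the α1 chain, which with β1 binds collagen IV and is known from tissue-resident lymphocytes as well as from endothelium and mesenchymal cells. Its normalized count was 5.81 and 3.78 in WT and 15.6 and 21.0 in the KO-labelled libraries, from 118 to 657 counts. The groups lay far apart compared with their own spread. The means were 4.79 ± 1.44 and 18.3 ± 3.78 (SD, n = 2), a log2 fold change of 1.98 (standard error 0.303, edgeR adjusted p = 0.00494). Itga1 was called in all 12 alternatives, with a log2 fold change of 1.69 to 2.32 when a library was left out.

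Reads of Itga1 can be shared with Gm49395, on the same strand, which overlaps it over 685 exon bases and had at most 15.6 counts in a library. Pelo lies within Itga1 on the same strand, shares no exon base with it, and was at 118 and 105 counts in WT and 61.4 and 101 in the KO-labelled libraries (log2 fold change -0.40, edgeR adjusted p = 0.565). The gene inside was thus not called. Endothelial markers moved with Itga1: their summed normalized count was 187 in either WT library and 510 and 525 in the KO-labelled libraries, with no marker at 0. Their median log2 fold change over 11 tested genes was 1.70, beside 1.98 for Itga1, and their part in the Itga1 result was not tested. The fibroblast list, with Lum at 0 in 1 library, overlapped between the groups at 17.6 and 50.1 in WT and 40.3 and 82.2 in the others, with 0 of 5 tested markers called by edgeR (1 higher at an unadjusted p under 0.05, 0 by DESeq2).

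Itga2 (chr13:114833081-114932100, minus strand), on the same chromosome as Itga1, encodes the α2 chain of the other collagen receptor of this kind, known from platelets and NK cells. It was at 3.47 and 9.15 in WT and at 11.9 and 10.1 in the KO-labelled libraries. Both of the latter were higher, but WT replicate 2 came close to them. The log2 fold change was 0.82 (standard error 0.392, edgeR adjusted p = 0.198). Without WT replicate 2 it was 1.70 and passed the test (adjusted p = 0.0479), and without WT replicate 1 it was 0.29 (adjusted p = 0.592), so 1 library decided the value. NK and ILC1 markers were low, with a summed normalized count of 14.9 and 27.6 in WT and 32.8 and 28.7 in the KO-labelled libraries and 1 of 3 tested markers called higher.

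Itga6 (chr2:71745616-71858416, plus strand) encodes the laminin-binding α6 chain. It was at 30.5 and 29.3 in WT and at 39.5 and 38.4 in the KO-labelled libraries. The groups were tight and did not overlap, yet the test was not passed, with a log2 fold change of 0.41 (standard error 0.139, edgeR adjusted p = 0.0843). Its change was as large as that of Itgb1, with a wider standard error and 924 to 1206 counts per library beside 9017 to 12363. Itga5 (chr15:103344286-103366763, minus strand) encodes the fibronectin-binding α5 chain and was at 10.3 and 12.0 in WT and at 11.3 and 14.1 in the KO-labelled libraries. Its groups overlapped, with a log2 fold change of 0.22 (standard error 0.245, edgeR adjusted p = 0.586).

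**Figure D2:**
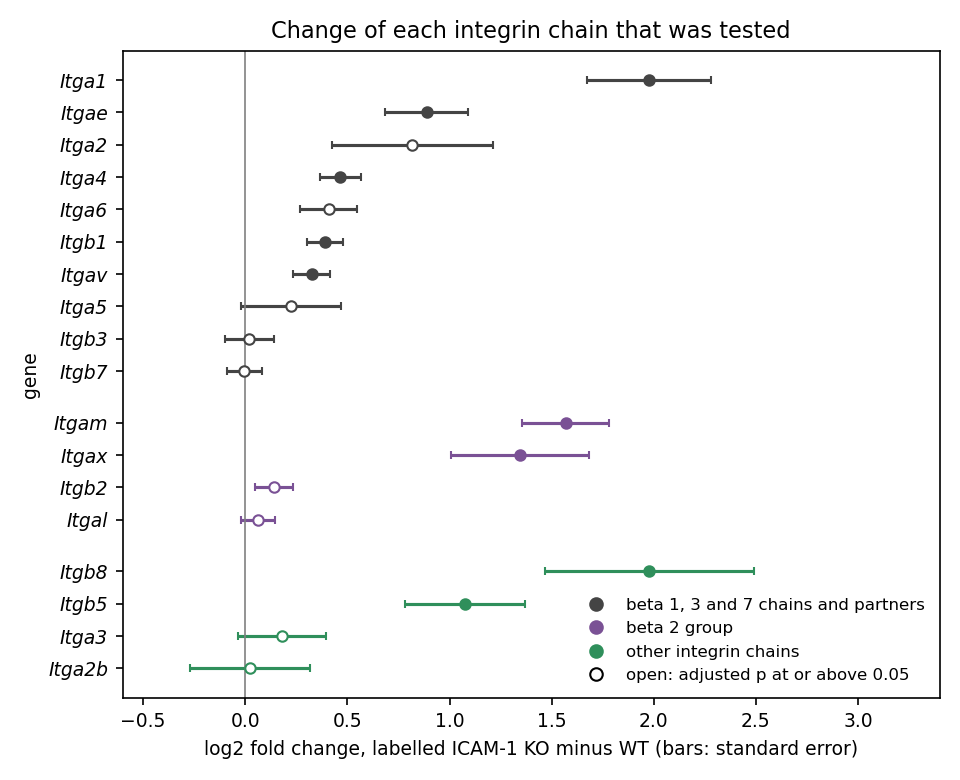
Log2 fold change of the 18 integrin chains that were tested, KO-labelled minus WT, with standard errors as bars, in 3 groups by colour and with open circles where the adjusted p was not under 0.05. Itga1 at 1.98 and Itgb8 at 1.98 lie farthest to the right, and Itgb7, Itgb3 and Itga2b lie closest to 0.

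Among the 7 alpha chains, the make-up of the summed level per kilobase shifted little for the most abundant chain. Itga4 took 41.2% and 37.7% in WT and 40.4% and 37.1% in the KO-labelled libraries, which overlap (exact permutation p = 0.667, two-sided). Itgav took 32.4% and 31.7% in WT and 27.9% and 29.5% in the KO-labelled libraries, and Itgae 9.19% and 12.5% against 14.8% and 14.0%. Neither of these overlapped between the groups (exact permutation p = 0.333 each, the smallest possible). Itga1 took 0.855% and 0.513% in WT and 1.54% and 2.27% in the KO-labelled libraries. The summed level of the 7 alpha chains was 40.4 and 43.1 CPM per kilobase in WT and 63.2 and 56.7 in the KO-labelled libraries, while that of the 3 beta chains, most of it Itgb7, was 539 and 493 against 547 and 558. In all, 16 such ratios, shares and sums were computed, of which 11 had the smallest possible p, and the smallest Benjamini-Hochberg adjusted permutation p was 0.485.

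**Figure D3:**
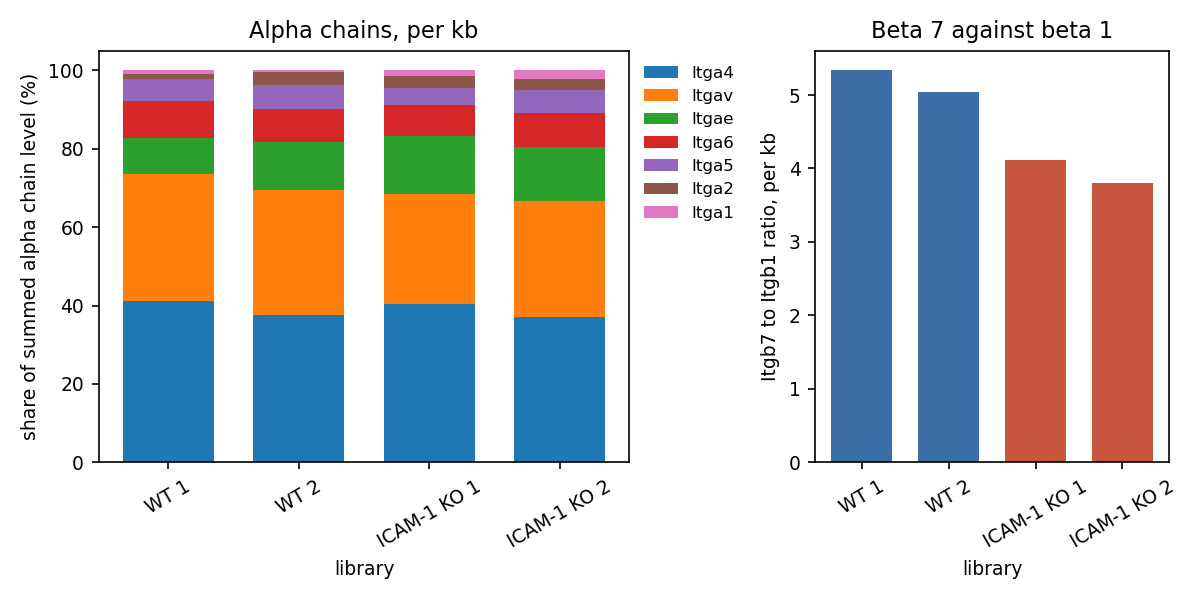
Left, the share of each alpha chain in the summed alpha chain level per kilobase, in percent, for each library; right, the ratio of Itgb7 to Itgb1 per kilobase in each library, blue for WT and red for KO-labelled libraries. Itga4 stays between 37.1% and 41.2%, while the ratio goes from 5.34 and 5.05 in WT to 4.11 and 3.80.

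The β2 group, which includes the receptor for ICAM-1, split in the same comparison. Itgal and Itgb2, the chains of LFA-1, were at 306 ± 14.0 and 309 ± 15.7 in WT and at 314 ± 3.02 and 335 ± 22.5 (SD, n = 2) in the KO-labelled libraries, and did not pass the test (log2 fold changes 0.06 and 0.14, edgeR adjusted p = 0.658 and 0.339). Itgam and Itgax, chains known from myeloid cells, rose by log2 fold changes of 1.57 and 1.35 (edgeR adjusted p = 0.0029 and 0.0333). CD11b and CD11c, their proteins, were in the lineage cocktail that the sort excluded. Macrophage and dendritic markers had a summed normalized count of 267 and 259 in WT and 514 and 780 in the KO-labelled libraries, with none at 0.

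Genes that switch integrins on and tie them to actin were called in 1 direction. Of 44 listed, 40 were tested, 8 were called higher and 0 lower by edgeR, beside 8.8% and 4.97% of all genes tested (15 higher and 1 lower at an unadjusted p under 0.05, 9 and 0 by DESeq2), with a median log2 fold change of 0.19. The count fell to 5 without WT replicate 1, WT replicate 2 or KO-labelled replicate 2. The most abundant, the actin crosslinker Flna (log2 fold change 0.22, edgeR adjusted p = 0.153), the GTPase Rap1b (0.10, 0.483) and the alpha-actinin Actn4 (-0.05, 0.743), did not pass the test. Those called with the smallest adjusted p were the tetraspanin Cd9, at 33.2 and 32.4 in WT and 70.9 and 90.3 in the KO-labelled libraries (log2 fold change 1.33, edgeR adjusted p = 0.0014), the kinase Syk, at 17.1 and 27.6 against 63.6 and 61.0 (1.50, 0.00274), and kindlin-2, Fermt2, at 2.31 and 1.65 against 8.09 and 9.69 (2.22, 0.00705). Fermt3, the kindlin of blood cells and named after its values were seen, was at 401 and 390 against 333 and 358 (log2 fold change -0.17, edgeR adjusted p = 0.22). The log2 fold changes of the 2 kindlins differed in sign, but that of Fermt3 was not called. Fermt2, like Syk and Cd9, is known from endothelium, platelets, B cells or myeloid cells, and the part of such cells was not tested.

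Ligand genes were also called in 1 direction. Of 30 listed, 19 were tested and 6 were called higher and 0 lower by edgeR, beside the same 8.8% and 4.97% (7 and 0 at an unadjusted p under 0.05, 6 and 0 by DESeq2), with a median log2 fold change of 0.69. Thrombospondin 1, Thbs1, was at 42.1 and 37.7 in WT and 138 and 106 in the KO-labelled libraries (log2 fold change 1.64, edgeR adjusted p = 0.000496). Fibronectin, Fn1, was at 44.0 and 40.4 against 129 and 94.8 (1.43, 0.00112), and the basement membrane collagen Col4a1 at 10.0 and 15.9 against 38.0 and 34.8 (1.51, 0.00384). These genes are known from endothelial, myeloid and matrix-making cells. Endothelial and myeloid markers were higher in the KO-labelled libraries, while none of the tested fibroblast markers was called, and the part of such cells was not tested. Tgfb1, the most abundant gene of the list, was at 136 and 124 against 106 and 117 and did not pass the test (log2 fold change -0.19, edgeR adjusted p = 0.249). Madcam1 had 0 counts in at least 1 library.

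Genes of tissue retention and egress went both ways. Of 12 listed, 10 were tested, 3 were called higher and 3 lower by edgeR, beside 8.8% and 4.97% of all genes tested. At an unadjusted p under 0.05 and with DESeq2, 3 were higher and 3 lower. Among those that rose, Klf2, a factor that drives egress genes, was at 47.3 and 51.7 in WT and 76.7 and 94.4 in the KO-labelled libraries (log2 fold change 0.82, edgeR adjusted p = 0.00705). S1pr1, the receptor for egress along sphingosine phosphate, also rose. Cxcr6, a chemokine receptor of resident lymphocytes, was at 647 and 648 in WT and 451 and 438 in the KO-labelled libraries (log2 fold change -0.52, edgeR adjusted p = 0.0047), and Rgs1, which dampens chemokine receptor signals, at 1554 and 1448 against 1099 and 1210 (-0.35, 0.0358). Gpr183 was the other gene that fell. Ccr7 (0.13, edgeR adjusted p = 0.543) did not pass the test. Itga1 and Itgae, which are used with Cxcr6 to mark residency, rose where Cxcr6 fell, and which cells carried each RNA was not tested. Cd69 of the same list, named after its values were seen, was at 155 and 104 in WT and 133 and 146 in the others. Its groups overlapped and it was not called (log2 fold change 0.13, edgeR adjusted p = 0.636).

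**Figure D4:**
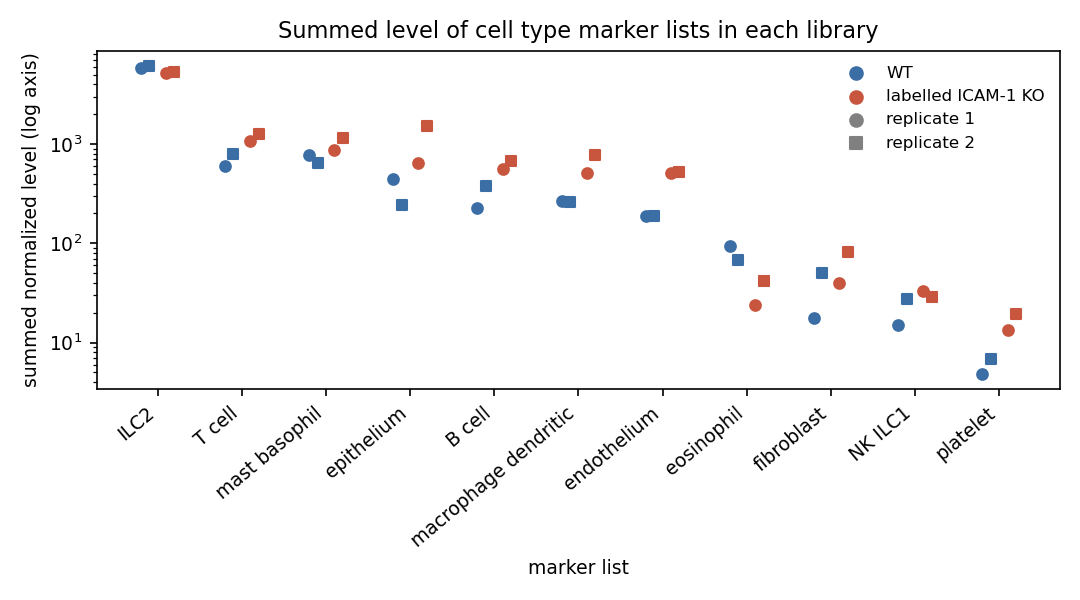
Summed normalized count (log axis) of each marker list in each library, blue for WT and red for KO-labelled libraries, circles for replicate 1 and squares for replicate 2. The ILC2 list is highest in every library, and the endothelial list stands at 187 in either WT library and at 510 and 525 in the others.

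Of the marker lists not yet given, the epithelial one summed to 448 and 241 in WT and 645 and 1521 in the KO-labelled libraries, with Sftpb at 0 in 1 library. The B cell list summed to 230 and 377 against 565 and 682, and the mast cell and basophil list to 785 and 648 against 868 and 1153, with 1 of 6 called higher. The eosinophil list summed to 95.0 and 68.0 against 23.9 and 41.4, with 2 of 4 tested markers called higher and 2 lower, and Epx was at 0 in both KO-labelled libraries. In the ILC2 list 1 gene was called higher (Klrg1) and 2 lower (Arg1 and Il2ra).

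For each of the 5 chains that rose, the genes nearest in pattern were those with the smallest root mean square distance of centred log2 CPM over the 4 libraries, among 11695 genes. For Itga1 they were Cavin2, which encodes a coat protein of caveolae (distance 0.0502), and the kinase gene Map3k6 (0.0860). For Itga4 they were the channel kinase gene Trpm7 (0.0062) and Dgkd (0.0113), for Itgb1 the kinase gene Dyrk1a (0.00516) and Renbp (0.0171), and for Itgav Jak2 (0.0060) and Trim30a (0.0147). For Itgae they were Brpf3 (0.0384) and Glce (0.0416). The distances were larger for Itga1 and Itgae, the genes with the larger changes.

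**Figure D5:**
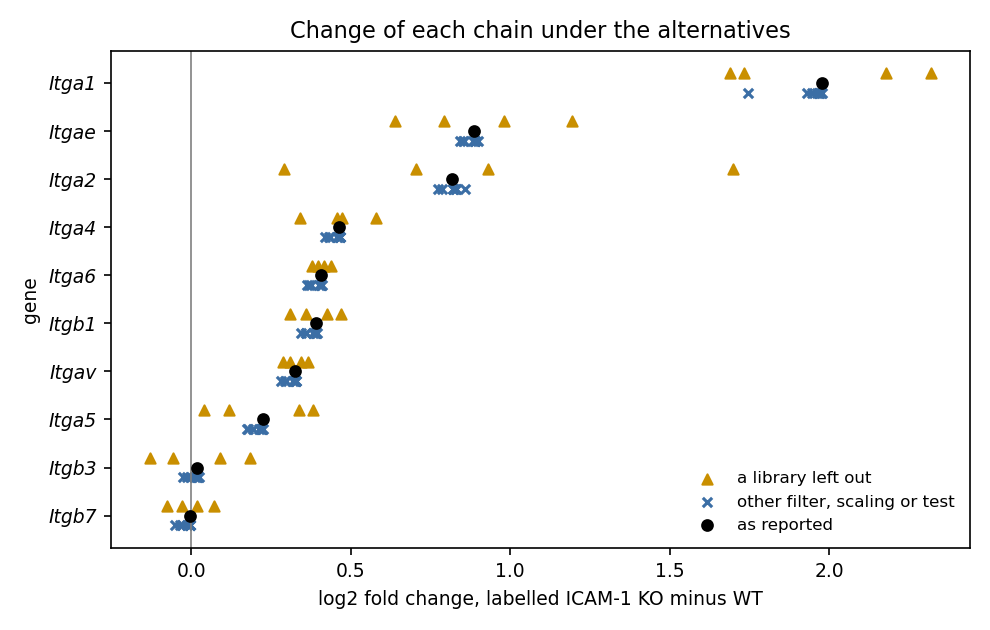
Log2 fold change of each chain, KO-labelled minus WT, as reported (black), with another filter, scaling, test or block (blue crosses) and with a library left out (triangles). Itga1 lies between 1.69 and 2.32, Itga2 between 0.29 and 1.70, and Itgb7 and Itgb3 lie on both sides of 0 when a library is left out.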

How the data were processed

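RNA of sorted lung ILC2s was sequenced in 2 WT libraries and 2 libraries labelled ICAM-1 KO. The authors made cDNA with a SMARTer low-input kit, sequenced it on a NextSeq 500, mapped it to mm10 by STAR and, on GENCODE M20 genes, let Partek estimate a count per gene. These deposited expected counts are not normalized. The normalized signal that the authors deposited is the count plus 1 times 1 factor per library, set by the upper quartile, and is called the normalized count. A summed normalized count is the sum, over the listed genes in the count table, of the count times that factor without the added 1. The GSA test of the paper was not run. Whether strand was used in counting is not given in the sources used here.

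Here the expected counts were rounded and tested with edgeR 4.0.16 (quasi-likelihood F test, R 4.3.3), with upper quartile factors, in genes whose normalized count reached 1 as a mean and 10 as a sum. P-values were adjusted by Benjamini-Hochberg over all 11711 genes tested, and a gene was called at an adjusted p under 0.05. DESeq2 1.42.0, limma 3.58.1 (log2 of the normalized count plus 1), TMM factors, other filters, a replicate block and leaving out each library were alternatives. The script was tested on simulated counts with known changes of at least 2-fold. These were larger than the changes of Itga4, Itgae, Itgav and Itgb1, so that test does not bear on calls of their size. Levels between genes were divided by merged exon length.

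The 10 genes and all gene lists were chosen with earlier results of these data known. Genes named from a list are up to 3 of its most abundant and up to 3 with the smallest adjusted p. Cdh1, Cd3d, Cd3e, Cd3g, Cd4, Cd8a, Cd69, Fermt3, S1pr1, Gpr183, Gp1bb, Gp9, Lum, Madcam1, Sftpb and genes that overlap the integrin genes were named after their values were seen. 1 gene that this rule takes from the retention list is not reported here. The labels name replicates without saying whether sorts were separate, so p-values measure the spread between these libraries, which may be technical.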

Additional observations from a re-analysis of the deposited data

How the results depend on the processing

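With 2 libraries a group, the calls of Itga4, Itgb1 and Itgav rested on small differences. Those calls and that of Itgae, with its fold change of 1.85, were lost with no filter on low counts. Of the 10 chains 5 were called higher, against 1 with no filter on low counts and 1 to 3 with a library left out (1 without WT replicate 1, 3 without any of the others, among them Itga2 without WT replicate 2), and 0 were called lower under any alternative. All genes called fell from 1612 to 535 with no filter and to between 681 (without WT replicate 2) and 1305 with a library left out, and the calls without WT replicate 2 were 76.8% higher against 63.9%. The other integrin chains called went from 2 to 1 with the older form of the quasi-likelihood test, to 0 with no filter or with edgeR's filterByExpr, and to 0 to 1 with a library left out. The activators and adaptors called went from 8 to 4 with no filter and 5 to 8 with a library left out, and the retention and egress genes from 6 to 2 with no filter. With no filter the adjusted p of edgeR was 0.0948 for Itga4, 0.0989 for Itgae, 0.0918 for Itgb1 and 0.143 for Itgav. Itgav also missed the threshold with filterByExpr (0.0814), limma (0.056) and the older test (0.0535). The log2 fold change of Itgb3 turned to -0.0258 with no filter, -0.0118 with filterByExpr and -0.0008 with limma, and ranged from -0.13 to 0.18 with a library left out, and that of Itgb7 from -0.076 to 0.0703. Ratios per kilobase kept their order with longest transcripts (5.01 and 3.82 for Itgb7 to Itgb1). The cause of these changes was not tested. Both groups have replicates 1 and 2, and deviations of same-numbered libraries from their group means had r = -0.0582 over 11711 genes. With 2 libraries a group, this value cannot tell whether same-numbered libraries were sorted or processed together. With the replicate block 1077 genes were higher and 638 lower, 4 of the 10 chains were called, and the call of Itgav was lost (adjusted p = 0.0502). Levels of Itga1 and Itga2 rest on 104 to 657 counts per library, which limits their precision.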
